A study of Mus musculus with 6 samples.

Results

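The G1/S and DNA replication genes are a set of 50 genes, taken by their symbols, whose products license origins, unwind and copy DNA, make its precursors, or time entry into S phase. All 50 were found among the 23935 gene symbols of the deposited tables, and all 50 passed the filter on low counts that left 16516 genes for testing. RNA-seq was performed on bone marrow-derived macrophages (BMDMs), bone marrow cells cultured for 7 days in medium with M-CSF, the growth factor of macrophages. Both groups were primed for 16 h with LPS at 10 ng/mL, a component of the bacterial outer membrane, and IFN-γ at 25 ng/mL. The PKM2FL/FL group (n = 3 mice) carried the floxed Pkm2 allele. The PKM2ΔMAC group (n = 3 mice) carried the same floxed allele with LysM-Cre, a recombinase expressed from the Lyz2 locus in macrophages and other myeloid cells. Cre, and the near absence of Lyz2 RNA described below, went with the PKM2ΔMAC genotype only. Effects of Cre itself, of the low Lyz2 level and of the deletion therefore cannot be told apart. The age and sex of the mice used for these libraries are not given in the sources used here, and no unprimed BMDMs were analysed here.

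In dividing cells, E2F transcription factors are held by Rb family proteins until cyclin-dependent kinases, with cyclin E among them, release them in late G1, and they then switch on genes for DNA replication. The origin recognition complex, CDC6 and CDT1 load the MCM2-7 helicase on origins, and CDC45 and the GINS complex turn it into a working fork, on which PCNA and the DNA polymerases copy both strands. BMDMs divide while they are grown in M-CSF, and LPS and IFN-γ are known to halt the division of macrophages.

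Library totals were between 49957449 and 54524651 counts, so that 3 counts, the limit that a count of 0 allows, correspond to between 0.0545 and 0.0605 CPM, counts scaled to the same total in each library. This limit covers counting error only. Members were well above this limit, with means between 1.84 and 188 CPM and at least 61 counts in every library. As a check of genotype, Pkm stood at 1715, 1699 and 1705 CPM in the controls and at 986, 1209 and 1006 CPM in PKM2ΔMAC replicates 1 to 3 (log2 fold change -0.68, SE 0.08, with an adjusted p of 0.00913 in edgeR). Reads on all Pkm isoforms were counted together. Lyz2, the locus of Cre, was between 17011 and 18716 CPM in PKM2FL/FL and between 24.2 and 31.7 CPM in PKM2ΔMAC libraries. Macrophage markers summed to between 7089 and 7310 CPM in PKM2FL/FL and between 7144 and 7941 CPM in PKM2ΔMAC libraries, with all 8 detected. Of these, 2 were higher in PKM2ΔMAC without overlap, Itgam (log2 fold change 0.43, adjusted p = 0.00272, called) and Adgre1 (0.26, adjusted p = 0.236). Over all tested genes 8.77% were higher without overlap and 0.285% were called higher. Adgre1 was called by DESeq2 (adjusted p = 0.0383, with 0.91% of its genes called higher). It was also called by edgeR without PKM2ΔMAC replicate 2 (adjusted p = 0.0414, with 0.97% called higher). The part of these and of the stromal markers in the values of the replication genes was not tested. Stromal markers, collagen genes for the most part, were also abundant, at between 4999 and 5592 CPM in PKM2FL/FL and at 6307, 4989 and 6289 CPM in PKM2ΔMAC replicates 1 to 3, so that replicates 1 and 3 lay above every control and replicate 2 below. Of the 5 stromal markers, 4 were higher on average and 1 was lower, Col3a1 (log2 fold change -0.15, with overlap). Pdgfrb was higher without overlap (adjusted p = 0.0719 in edgeR and 0.0044 in DESeq2). Without PKM2ΔMAC replicate 2, 4 of the 5 were higher without overlap, where 15.5% of all tested genes were, and 2 were called, Pdgfrb (adjusted p = 0.0234) and Col1a1 (adjusted p = 0.0307), where 0.97% of all genes were called higher. PKM2ΔMAC replicate 2 stood apart from the other libraries for the replication genes, and log2 fold changes are also given without it.

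The stretches of DNA in front of these genes are shown to give the sequence setting in which E2F factors are known to act. Promoters from RefSeq (GRCm38.p6, 250 bases before to 50 bases after a start) were matched by symbol for 41 of the 50 members. TTTCCCGC, TTTCGCGC, TTTGCCGC and TTTGGCGC, searched on both strands and here called E2F motifs, were present in 17 of these 41 genes (41.5%) and in 704 of all 27025 symbols with a promoter (2.60%). The set was listed partly as E2F targets, so its higher share follows at least in part from that choice. Matches on opposite strands can overlap, since some of these letters form a palindrome. By role, they were in 7 of 9 helicase loading genes (Orc1, Cdc6, Cdt1, Mcm3, Mcm5, Mcm6 and Mcm7), in 5 of 12 replication fork genes (Rfc3, Pola1, Pole2, Pold1 and Lig1), in 2 of 5 chromatin assembly and histone supply genes (Uhrf1 and Hells), in Gins3, E2f2 and Clspn, and in 0 of 5 nucleotide supply genes. CCAAT, the letters read by NF-Y, was in 23 of 41 members (56.1%) and in 41.1% of all symbols. A match is a description of the sequence and no evidence of binding.

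The windows below carry the matches of members whose values are described further on, with up to 8 bases on either side, in the direction of the gene, with the matching bases in capitals. Cdc6 (chr11:98908005-98908028, in an intron of Cdc6 by GENCODE M21), Uhrf1 (chr17:56304120-56304143, in an intron of Uhrf1), Lig1 (chr7:13278844-13278867, in an exon of the Lig1 5′ untranslated region), Clspn (chr4:126556993-126557016, in an exon of the Clspn 5′ untranslated region), Mcm5 (chr8:75109348-75109375) and Mcm6 (chr1:128359796-128359823 and chr1:128359737-128359760), the last 2 genes with their matches outside the gene and before its start, and Cdt1 (chr8:122568039-122568062, with the match in the 5′ untranslated region of Cdt1) are shown. The plus strand carries Cdc6, Uhrf1, Lig1, Clspn, Mcm5 and Cdt1, and the minus strand Mcm6.
Cdc6: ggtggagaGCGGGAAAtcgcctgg
Uhrf1: gagtcgggTTTCGCGCgcccaggc
Lig1: caaagtgcGCGCGAAAtctgtgtg
Clspn: gcgtctggGCGCGAAAgctcgaac
Mcm5: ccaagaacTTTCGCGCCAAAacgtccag
Mcm6, farther from the start: cgtatgctTTTGGCGCGAAAagtgcgtg
Mcm6, nearer to the start: tggacgggTTTGGCGCgaagtagc
Cdt1: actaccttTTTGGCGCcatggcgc

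The 250 bases before the start of Mcm6 (chr1:128359706-128359955, minus strand), Mcm5 (chr8:75109259-75109508, plus strand) and Pola1 (chrX:93632156-93632405, minus strand) are shown whole, because they hold 3, 2 and 1 matches and overlap no exon of GENCODE M21. Capitals again mark the matches.
Mcm6 upstream: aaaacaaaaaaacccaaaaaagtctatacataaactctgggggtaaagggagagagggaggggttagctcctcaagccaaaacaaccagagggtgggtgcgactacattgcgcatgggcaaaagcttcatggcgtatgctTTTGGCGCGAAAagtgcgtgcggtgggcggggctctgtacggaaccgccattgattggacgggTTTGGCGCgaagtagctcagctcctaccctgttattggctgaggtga
Mcm5 upstream: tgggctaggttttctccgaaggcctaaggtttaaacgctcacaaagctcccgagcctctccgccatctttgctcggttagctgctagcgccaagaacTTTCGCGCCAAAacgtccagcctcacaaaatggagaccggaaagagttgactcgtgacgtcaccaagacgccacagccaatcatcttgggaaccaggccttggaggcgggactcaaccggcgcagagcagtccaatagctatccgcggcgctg
Pola1 upstream: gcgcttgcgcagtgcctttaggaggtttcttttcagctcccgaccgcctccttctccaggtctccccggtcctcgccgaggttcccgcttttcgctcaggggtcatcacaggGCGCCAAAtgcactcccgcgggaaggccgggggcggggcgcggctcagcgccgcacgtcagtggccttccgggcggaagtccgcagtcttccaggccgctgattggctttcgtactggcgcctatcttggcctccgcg
The matches lay in genes with large and with small differences alike. The median log2 fold change between genotypes, described next, was 0.35 for the 17 members with a match and 0.33 for the 24 without. For CCAAT it was 0.35 for the 23 members with these letters and 0.22 for the 18 without. No test of these differences was made.

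Across the set, 46 of the 50 members had a higher level in PKM2ΔMAC than in PKM2FL/FL BMDMs, against 49.9% of all tested genes, and the median log2 fold change was 0.30, against -0.000207 for all tested genes. None of the 50 passed an adjusted p of 0.05 in the quasi-likelihood test of edgeR, adjusted over all tested genes by Benjamini-Hochberg. In that test 0.285% of all genes were called higher and 0.127% lower. With an unadjusted p under 0.05, 21 members were higher and 1 was lower, against 5.24% and 4.6% of all genes. The lowest adjusted p of a member was 0.117, for Lig1. Other tools differed in this count. DESeq2 called 3 members higher (Lig1, adjusted p = 0.00375; Cdc6, adjusted p = 0.0263; Uhrf1, adjusted p = 0.0308), with 0.91% of its genes called higher, while limma-trend on the deposited TPM called 0. With edgeR and no filter on low counts, Lig1 alone was called (adjusted p = 0.0358), with 0.322% of genes called higher.

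All 3 PKM2ΔMAC libraries lay above all 3 PKM2FL/FL libraries for 24 members, where 8.77% of all genes showed this, and below them for 1 member, Rfc2, where 8.55% did. With 3 mice per genotype, a two-sided exact permutation test of a single gene cannot give a p below 0.10. In these bulk libraries fewer cells of a type and less RNA per cell cannot be told apart, so a difference can lie in the share of cycling cells or in the level within them.

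**Figure D1:**
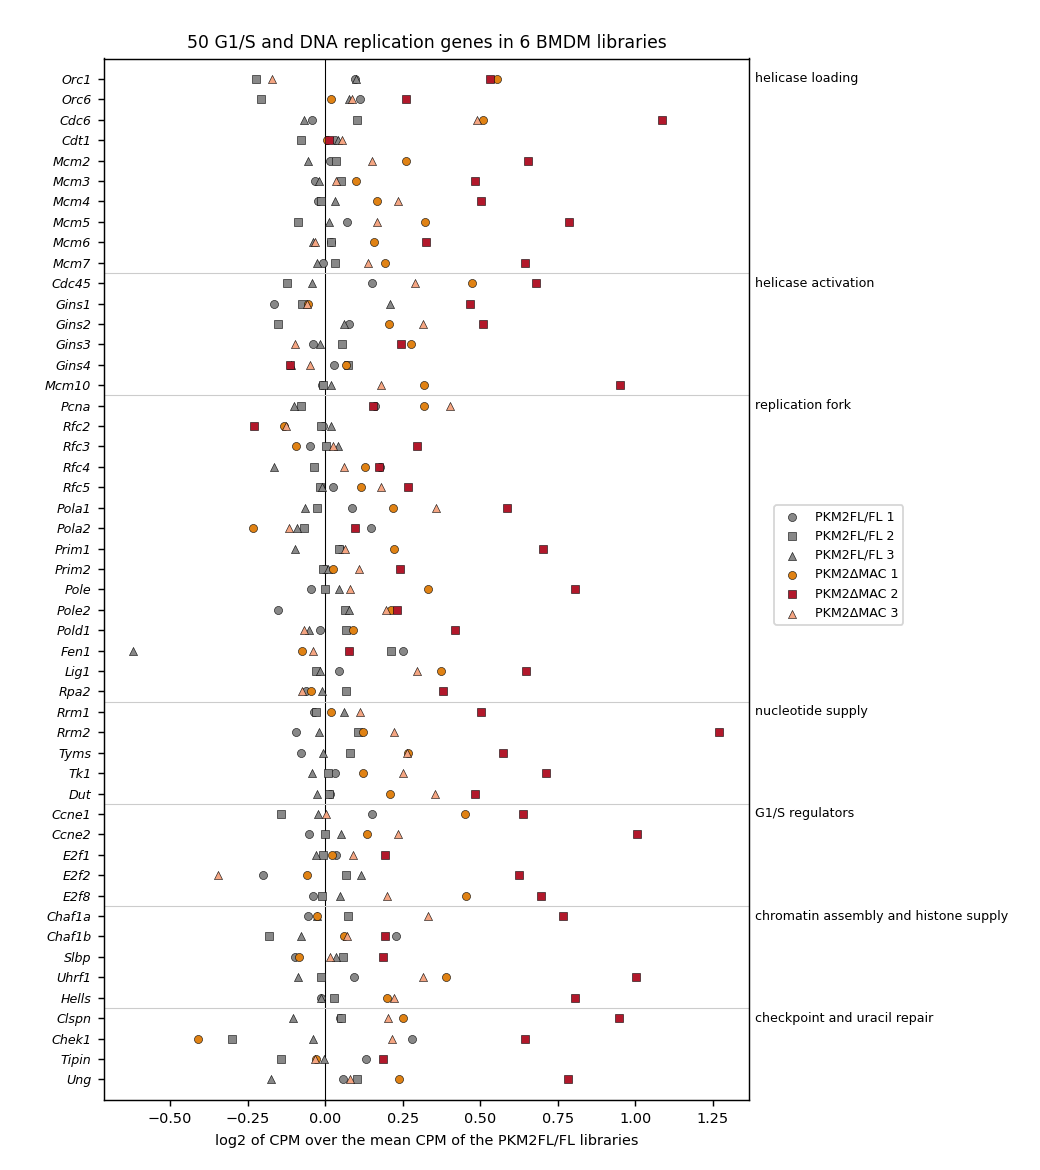
Each point is a library's CPM over the mean CPM of the 3 PKM2FL/FL libraries, on a log2 scale, for the 50 members grouped by role. PKM2FL/FL libraries are grey and PKM2ΔMAC libraries coloured, and the dark red squares of PKM2ΔMAC replicate 2 are the highest point for 40 of the 50 genes.

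PKM2ΔMAC replicate 2 had the highest level of the 6 libraries for 40 of the 50 members (80.0%), where it was the highest for 24.2% of all tested genes. The median member stood at 0.50 on the log2 scale above the PKM2FL/FL mean in this library, and at 0.15 and 0.11 in PKM2ΔMAC replicates 1 and 3. The PKM2FL/FL libraries were at 0.018, -0.0035 and -0.018. Thus all 3 PKM2ΔMAC medians were above those of the controls, and replicate 2 lay farther from the other libraries of its genotype than these did from the controls. Counted singly, replicates 1, 2 and 3 exceeded every PKM2FL/FL library for 32, 42 and 29 members, where 28.1%, 32.7% and 29.7% of all tested genes did so. Replicate 2 was above the mean of replicates 1 and 3 for 46 members, by a median of 0.32 on the log2 scale, from -0.21 for Pcna to 1.10 for Rrm2.

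Without PKM2ΔMAC replicate 2, 40 members were higher, at a median log2 fold change of 0.16. The remaining 2 PKM2ΔMAC libraries lay above all PKM2FL/FL libraries for 25 members, where 15.5% of all genes did. Lig1 and Uhrf1 were then called higher by edgeR (adjusted p = 0.0204 and 0.0306), with 0.97% of all genes called higher. Leaving out any other library called 0 members. Replicate 2 also had the highest Pkm level of its genotype, and whether its remaining Pkm has a part in the result was not tested.

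**Figure D2:**
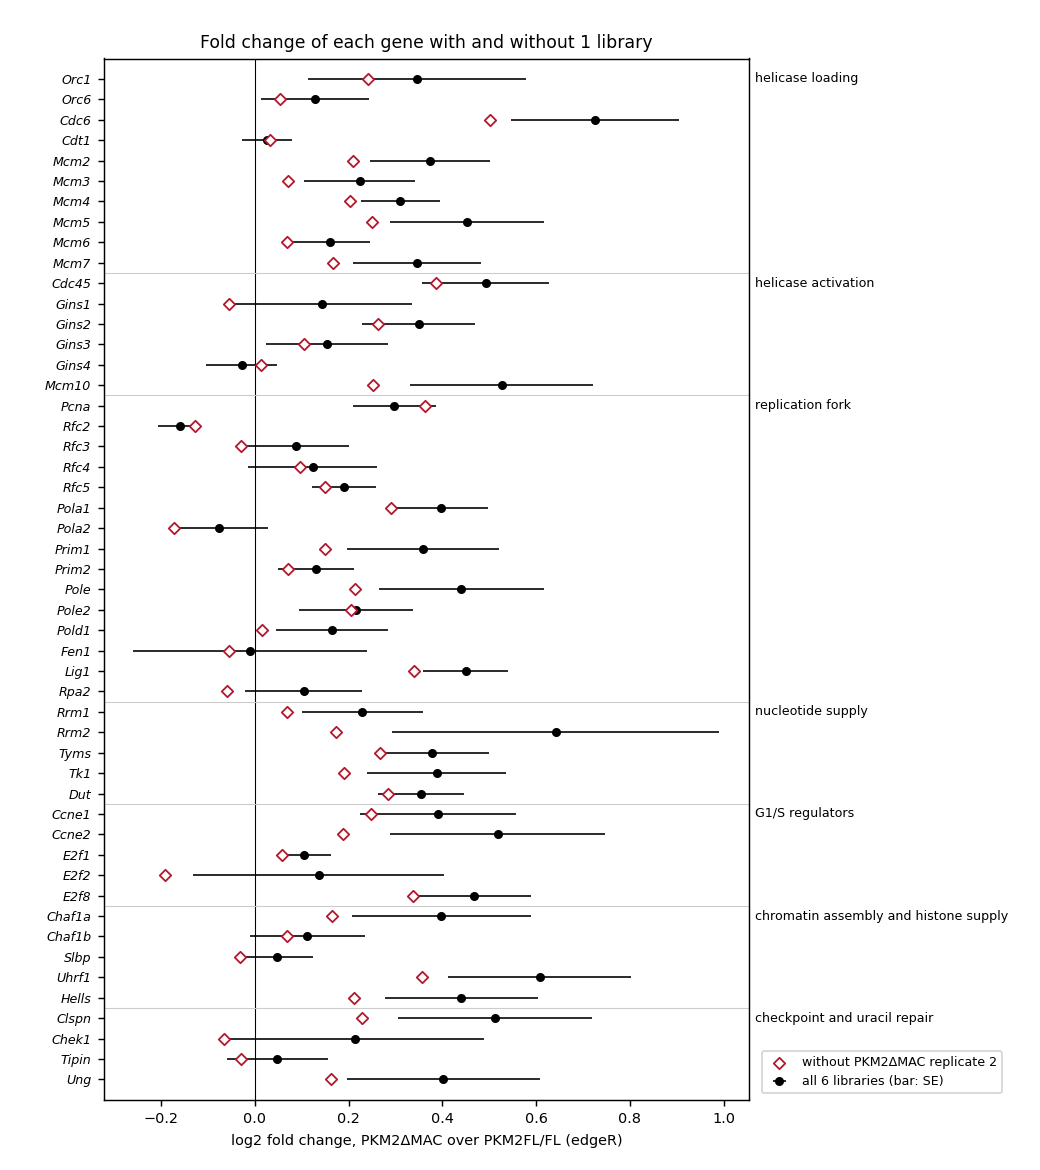
Log2 fold changes of the 50 members, PKM2ΔMAC over PKM2FL/FL, from edgeR. Black points with bars (SE) use all 6 libraries and open red diamonds leave out PKM2ΔMAC replicate 2, which moved the median from 0.30 to 0.16.

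Helicase loading genes were higher in 10 of 10 cases, at a median log2 fold change of 0.33, and 5 were higher without overlap (8.77% of all genes). Without PKM2ΔMAC replicate 2 all 10 were still higher, at a median of 0.18, and none was called. Cdc6 (chr11:98907801-98923940, plus strand), the ATPase that recruits the helicase to origins, had the largest difference of all members. It was at 3.93, 4.35 and 3.86 CPM in PKM2FL/FL and at 5.76, 8.59 and 5.69 CPM in PKM2ΔMAC replicates 1 to 3. Its genotypes did not overlap, and replicate 2 was the highest library. The controls averaged 4.05 ± 0.265 CPM and the PKM2ΔMAC libraries 6.68 ± 1.65 CPM (SD, n = 3 each). This gave a log2 fold change of 0.73 with an SE of 0.18 (adjusted p = 0.220), which was 0.50 without replicate 2 (adjusted p = 0.110). Cdt1 (chr8:122568015-122573554, plus strand), its partner in loading, was at 32.0, 29.7 and 32.2 CPM in PKM2FL/FL and at 31.4, 31.6 and 32.5 CPM in PKM2ΔMAC, so that the groups overlapped (log2 fold change 0.03, SE 0.05, adjusted p = 0.918). Cdt1 turned to -0.01 without PKM2FL/FL replicate 2. Orc1, the large ATPase subunit of the origin recognition complex, had a log2 fold change of 0.35, with overlap, and Orc6, its smallest subunit, one of 0.13, and these were 0.24 and 0.05 without PKM2ΔMAC replicate 2.

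The 6 subunits of the MCM2-7 helicase were all higher on average. Log2 fold changes on the CPM scale were 0.37 for Mcm2, 0.22 for Mcm3, 0.31 for Mcm4, 0.45 for Mcm5, 0.16 for Mcm6 and 0.35 for Mcm7, with adjusted p between 0.267 (Mcm4) and 0.612 (Mcm3). Without PKM2ΔMAC replicate 2 they were 0.21 for Mcm2, 0.07 for Mcm3, 0.20 for Mcm4, 0.25 for Mcm5, 0.07 for Mcm6 and 0.17 for Mcm7. Mcm2, Mcm4, Mcm5 and Mcm7 did not overlap between genotypes. Mcm6 (chr1:128331590-128359664, minus strand), the member of this role with the highest level per length, was at 80.6, 80.5 and 77.4 CPM in PKM2FL/FL and at 88.8, 99.7 and 77.7 CPM in PKM2ΔMAC. Replicate 3 of PKM2ΔMAC thus lay within the PKM2FL/FL range (log2 fold change 0.16, SE 0.09, adjusted p = 0.601). In TPM, which corrects for transcript length, Mcm6 was the most and Mcm2 the least abundant subunit in every library, and the ratio between them was between 3.57 (PKM2ΔMAC replicate 2) and 4.52 (PKM2FL/FL replicate 3). Mcm2 rested at 13.4, 13.8 and 12.8 TPM in PKM2FL/FL and 16.6, 22.9 and 15.2 TPM in PKM2ΔMAC, and Mcm6 at 59.9, 61.2 and 57.9 TPM and 69.1, 81.8 and 59.9 TPM. These RNAs, whose products form a ring with 1 copy of each, were thus not at equal levels.

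**Figure D3:**
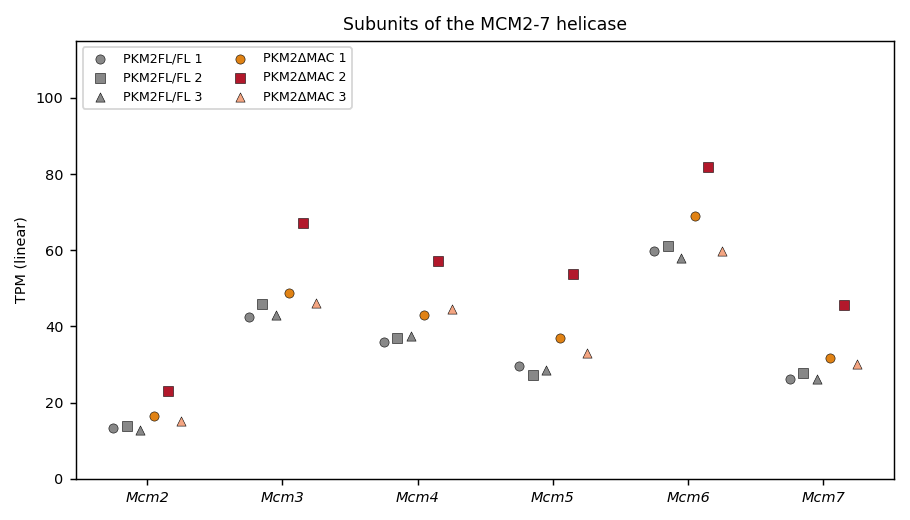
TPM (linear axis) of the 6 helicase subunits in each library, grey for PKM2FL/FL and coloured for PKM2ΔMAC. Mcm6 is the highest and Mcm2 the lowest subunit in all 6 libraries, and PKM2ΔMAC replicate 2 (dark red squares) is the highest library for each subunit.

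Helicase activation genes were higher in 5 of 6 cases, at a median log2 fold change of 0.25 (0.18 without PKM2ΔMAC replicate 2). In this role 3 were higher without overlap (8.77% of all genes). Mcm10 (chr2:4989714-5012791, minus strand), which helps start the assembled helicase, showed the largest difference of the role. It was at 6.14, 6.16 and 6.28 CPM in PKM2FL/FL and at 7.72, 12.0 and 7.02 CPM in PKM2ΔMAC. Its controls lay close together and every PKM2ΔMAC library was above them, replicate 2 by far the most (log2 fold change 0.53, SE 0.20, adjusted p = 0.433, and 0.25 without replicate 2). Cdc45, the helicase cofactor, had a log2 fold change of 0.49 and stayed at 0.39 without replicate 2. The 4 GINS subunits differed among themselves, with log2 fold changes of 0.14 for Gins1, 0.35 for Gins2, 0.15 for Gins3 and -0.03 for Gins4, which were -0.05, 0.26, 0.10 and 0.01 without replicate 2. Gins4 (chr8:23226616-23237659, minus strand) was at 21.0, 21.7 and 19.1 CPM in PKM2FL/FL and at 21.6, 19.0 and 19.9 CPM in PKM2ΔMAC, and replicate 2 was here the lowest library (SE 0.08, adjusted p = 0.942). Its sign turned on the TPM scale, at 0.04. Exons of Gse1 on the opposite strand cover 67.3% of the exonic length of Gins2, and no strand setting of the counting is given in the sources used here, so reads of these genes may be mixed. Gse1 was between 45.7 and 48.0 CPM in PKM2FL/FL and between 43.4 and 47.1 CPM in PKM2ΔMAC libraries.

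Of 15 replication fork genes, 12 were higher and 3 lower, at a median log2 fold change of 0.16 (0.10 without PKM2ΔMAC replicate 2). Without overlap, 7 were higher (8.77% of all genes) and 1 lower (8.55%). Pcna (chr2:132249162-132253314, minus strand), the sliding clamp, had the highest level per length of all members. It was at 189, 160 and 158 CPM in PKM2FL/FL and at 211, 188 and 224 CPM in PKM2ΔMAC. This pattern was unlike that of the helicase loading genes, since replicate 2 was the lowest of its genotype, as it was for Gins4. It differed by 0.30 on the log2 scale (SE 0.09, adjusted p = 0.347) and 0.36 without replicate 2. A near-identical copy, Pcna-ps2, is listed in the same tables, so reads may be split between them.

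Lig1 (chr7:13277283-13311433, plus strand), the ligase that joins Okazaki fragments, was at 24.5, 23.3 and 23.5 CPM in PKM2FL/FL and at 30.9, 37.2 and 29.2 CPM in PKM2ΔMAC. The genotypes were well apart, and the mean went from 23.8 ± 0.642 CPM to 32.4 ± 4.23 CPM (SD, n = 3 each). It differed by 0.45 on the log2 scale (SE 0.09, adjusted p = 0.117) and 0.34 without replicate 2 (adjusted p = 0.0204). Pola1, the catalytic subunit of the polymerase that starts each strand, was also higher without overlap, at a log2 fold change of 0.40 (0.29 without replicate 2), while Pola2, its regulatory subunit, was at -0.08 (-0.17). Of the primase subunits, Prim1 was at 0.36 and Prim2 at 0.13, and of the polymerases that extend strands, Pole was at 0.44, Pole2 at 0.22 and Pold1 at 0.16. Without replicate 2, Prim1 was at 0.15, Prim2 at 0.07, Pole at 0.21, Pole2 at 0.21 and Pold1 at 0.02. Rpa2, a subunit of the complex that coats single-stranded DNA, was at 0.10, and at -0.06 without replicate 2.

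Rfc2 (chr5:134581366-134601805, plus strand), a subunit of the clamp loader, was the only member lower without overlap. It was at 43.7, 43.6 and 44.6 CPM in PKM2FL/FL and at 40.1, 37.5 and 40.2 CPM in PKM2ΔMAC, where replicate 2 was the lowest library (log2 fold change -0.16, SE 0.05, adjusted p = 0.300, and -0.13 without replicate 2). The other small subunits were higher on average, at 0.09 for Rfc3, 0.12 for Rfc4 and 0.19 for Rfc5 (-0.03, 0.10 and 0.15 without replicate 2), and only Rfc5 did not overlap. Exons of Lat2 on the opposite strand cover 15.1% of the exonic length of Rfc2, and Lat2 was also lowest in replicate 2, at 72.8 CPM against 98.5 and 100 CPM in PKM2ΔMAC replicates 1 and 3 and between 82.0 and 101 CPM in the controls. Wsb2, whose exons on the opposite strand cover 10.7% of the exonic length of Rfc5, was lowest in replicate 2 too. It was at 107 CPM there, against 153 and 152 CPM in PKM2ΔMAC replicates 1 and 3, while Rfc5 was higher. The part of Lat2 in the value of Rfc2, and of Wsb2 in that of Rfc5, was not tested. Fen1, the nuclease that trims Okazaki fragments, had a log2 fold change of -0.01 (-0.06 without replicate 2) with an SE of 0.25, which leaves its direction undetermined at this spread. The antisense gene Gm10143 covers 78.8% of its exonic length, and was itself at between 0.0375 and 0.275 CPM in the libraries. The part of this overlap in the counts of both genes was not tested.

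Nucleotide supply genes were higher in 5 of 5 cases, at a median log2 fold change of 0.38 (0.19 without PKM2ΔMAC replicate 2). In this role 4 were higher without overlap (8.77% of all genes). Rrm2 (chr12:24708241-24714146, plus strand), the S-phase subunit of ribonucleotide reductase, was at 24.4, 28.0 and 25.7 CPM in PKM2FL/FL and at 28.4, 62.9 and 30.4 CPM in PKM2ΔMAC. Replicate 2 held more than the sum of the other 2 PKM2ΔMAC libraries, and replicates 1 and 3 lay just above the controls. The log2 fold change was 0.64 with an SE of 0.35 (adjusted p = 0.636) and fell to 0.17 without replicate 2. Rrm1 (chr7:102441695-102469771, plus strand), the subunit that is present throughout the cell cycle, was at 73.3, 73.7 and 78.3 CPM in PKM2FL/FL and at 76.1, 106 and 81.3 CPM in PKM2ΔMAC, with overlap (log2 fold change 0.23, SE 0.13, adjusted p = 0.635, and 0.07 without replicate 2). Tyms, which makes thymidylate, was at 0.38, Tk1, the thymidine kinase of S phase, at 0.39, and Dut, which removes dUTP, at 0.35. Of these, Dut stayed at 0.28 and Tyms at 0.27 without replicate 2, whereas Tk1 went to 0.19.

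G1/S regulators were higher in 5 of 5 cases, at a median log2 fold change of 0.39 (0.19 without PKM2ΔMAC replicate 2). In this role 2 were higher without overlap (8.77% of all genes). Ccne2 (chr4:11191351-11204779, plus strand), an E-type cyclin, was at 5.21, 5.39 and 5.59 CPM in PKM2FL/FL and at 5.93, 10.8 and 6.35 CPM in PKM2ΔMAC. All PKM2ΔMAC libraries were above the controls, replicates 1 and 3 by little (log2 fold change 0.52, SE 0.23, adjusted p = 0.519, and 0.19 without replicate 2). Ccne1, the other E-type cyclin, was at 0.39 with overlap and at 0.25 without replicate 2. E2f1 (chr2:154559407-154569892, minus strand), an activating factor, was at 34.4, 33.4 and 32.9 CPM in PKM2FL/FL and at 34.1, 38.4 and 35.8 CPM in PKM2ΔMAC (log2 fold change 0.11, SE 0.06, adjusted p = 0.601, and 0.06 without replicate 2). E2f8, a repressing member of the family, did not overlap, at 0.47 and 0.34 without replicate 2. E2f2, another activator, was at 0.14 with an SE of 0.27 and turned to -0.19 without replicate 2.

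Chromatin assembly and histone supply genes were higher in 5 of 5 cases, at a median log2 fold change of 0.40 (0.17 without PKM2ΔMAC replicate 2). In this role 2 were higher without overlap (8.77% of all genes). Uhrf1 (chr17:56303321-56323486, plus strand), which brings the maintenance DNA methyltransferase to newly copied DNA, was at 22.1, 20.5 and 19.5 CPM in PKM2FL/FL and at 27.2, 41.6 and 25.8 CPM in PKM2ΔMAC. The genotypes did not overlap, with means of 20.7 ± 1.30 CPM and 31.5 ± 8.73 CPM (SD, n = 3 each). It differed by 0.61 on the log2 scale (SE 0.19, adjusted p = 0.408), and without replicate 2 it was 0.36 with a smaller adjusted p (0.0306). Slbp (chr5:33634952-33652574, minus strand), which binds the stem-loop of histone mRNAs, was at 30.4, 33.8 and 33.4 CPM in PKM2FL/FL and at 30.7, 37.1 and 32.9 CPM in PKM2ΔMAC, with overlap (log2 fold change 0.05, SE 0.08, adjusted p = 0.895, and -0.03 without replicate 2). Hells, a chromatin remodeller, was at 0.44 without overlap, and at 0.21 when replicate 2 was left out. The subunits of chromatin assembly factor 1 were at 0.40 for Chaf1a and 0.11 for Chaf1b, both with overlap (0.17 and 0.07 without replicate 2), and Ubxn6 covers 52.5% of the exonic length of Chaf1a on the opposite strand.

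Checkpoint and uracil repair genes were higher in 4 of 4 cases, but the median log2 fold change of 0.31 was 0.07 without PKM2ΔMAC replicate 2, with 2 of 4 still higher. Clspn (chr4:126556935-126593903, plus strand), the adaptor that relays fork stalling to CHK1, was at 10.8, 10.9 and 9.76 CPM in PKM2FL/FL and at 12.5, 20.2 and 12.1 CPM in PKM2ΔMAC. It was the 1 gene of this role without overlap (log2 fold change 0.51, SE 0.21, adjusted p = 0.490, and 0.23 without replicate 2). Over all genes 8.77% were higher without overlap. Tipin (chr9:64281581-64305424, plus strand), a fork protection protein, was at 10.3, 8.51 and 9.37 CPM in PKM2FL/FL and at 9.21, 10.7 and 9.17 CPM in PKM2ΔMAC (log2 fold change 0.05, SE 0.11, adjusted p = 0.929, and -0.03 without replicate 2). Tipin lies 4.60 Mb from Pkm on the same chromosome. Chek1, the checkpoint kinase, was at 0.21 with an SE of 0.27 and at -0.07 without replicate 2, and Ung, which removes uracil from DNA, was at 0.40 and 0.16. Chek1 lies 22.9 Mb from Pkm, and the replication fork gene Prim1 lies 10.7 Mb from Lyz2 on chromosome 10. The part of these positions in the values of Tipin, Chek1 and Prim1 was not tested.

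The other genes of replication, S phase and mitosis give the setting of these values, and 0 of them were called with all 6 libraries by edgeR. Other subunits of the same complexes, such as Orc5, Rfc1 and Rbbp4, differed least. Of 14, 10 were higher, at a median log2 fold change of 0.05 (0.01 without PKM2ΔMAC replicate 2). By edgeR 1 was higher at an unadjusted p under 0.05 (5.24% of all genes) and without overlap (8.77%), Timeless, the partner of TIPIN. This count was near the shares over all genes. Timeless was at 9.76, 8.64 and 8.46 CPM in PKM2FL/FL and at 10.5, 12.8 and 10.3 CPM in PKM2ΔMAC (log2 fold change 0.32, SE 0.11, adjusted p = 0.394, and 0.22 without replicate 2). Rbbp4, a histone chaperone with the highest level per length in this list, was at 0.07 (0.01 without replicate 2) and Orc5, a subunit of the origin recognition complex, at -0.12 (-0.16). Even here PKM2ΔMAC replicate 2 had the highest median of the libraries, at 0.11.

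Other S-phase regulators were higher in 23 of 25 cases, at a median log2 fold change of 0.14 (0.09 without PKM2ΔMAC replicate 2). By edgeR 5 were higher at an unadjusted p under 0.05 (5.24% of all genes), and 8 without overlap (8.77%). Ccna2, the cyclin of S phase and G2, was at 15.4, 15.9 and 18.0 CPM in PKM2FL/FL and at 19.6, 34.0 and 19.0 CPM in PKM2ΔMAC (log2 fold change 0.56, SE 0.25, adjusted p = 0.542), and at 0.23 without replicate 2. E2f4, the E2F member mostly tied to quiescence and the most abundant per length here, was at 0.05 (0.01 without replicate 2), and Mcm9, a helicase of repair, at -0.03 (-0.04). Other nucleotide, chromatin and repair genes were higher in 17 of 20 cases, with a median of 0.13 (0.05 without replicate 2). Here 4 were higher at an unadjusted p under 0.05 (5.24% of all genes) and 4 without overlap (8.77%). Samhd1, which breaks down deoxynucleotides and is abundant in macrophages, was at 0.10 (0.06 without replicate 2), and Rrm2b, the ribonucleotide reductase subunit used outside S phase, at -0.09 (-0.08).

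Mitotic genes showed a larger median than any of the 7 roles, at 0.54 on the log2 scale with all libraries and 0.22 without PKM2ΔMAC replicate 2. All 12 of 12 were higher in both cases. With all libraries, 5 were higher at an unadjusted p under 0.05 (5.24% of all genes) and 8 without overlap (8.77%). PKM2ΔMAC replicate 2 was the highest library for all 12, with a library median of 0.98 against 0.26 and 0.22 in replicates 1 and 3. Mki67, the proliferation marker, was at 118, 125 and 128 CPM in PKM2FL/FL and at 163, 246 and 146 CPM in PKM2ΔMAC (log2 fold change 0.58, SE 0.21, adjusted p = 0.474). Without replicate 2 it was called, at 0.32 (adjusted p = 0.0154), as was Top2a, the topoisomerase that untangles chromosomes, at 0.29 (adjusted p = 0.0177). In that fit 0.97% of all genes were called higher. Birc5, a subunit of the chromosomal passenger complex, was at 0.70 and Tpx2, a spindle assembly factor, at 0.32, and these were at 0.43 and 0.01 without replicate 2. Replicate 2 was thus the highest by median for mitotic genes and for each role of the replication genes, and no test of the difference between these groups was made.

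**Figure D4:**
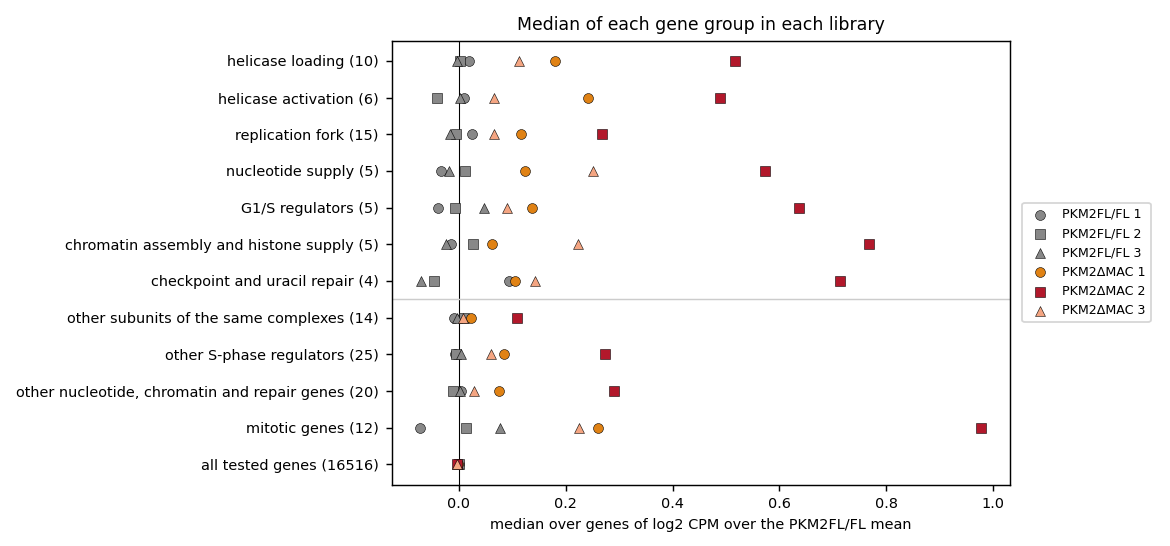
Median over the genes of each group (number of genes in parentheses) of log2 CPM over the mean of the PKM2FL/FL libraries, by library. Medians of PKM2ΔMAC replicate 2 run from 0.11 for the other subunits to 0.98 for mitotic genes, and all tested genes stay at 0.

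Levels per length varied more between members than between genotypes. Mean TPM over the 6 libraries ran from 2.25 for Orc1 to 282 for Pcna, with a median member at 10.2 TPM against 12.5 TPM over all tested genes, and 24 members were above the latter. Mcm6, at 64.9 TPM, Gins4, at 54.3 TPM, Mcm3, at 48.9 TPM, Rrm2, at 43.7 TPM, and Mcm4, at 42.6 TPM, followed Pcna. At the other end were Ung, at 2.27 TPM, Fen1, at 2.73 TPM, Chek1, at 3.01 TPM, Mcm10, at 3.56 TPM, and Cdc6, at 3.72 TPM. The level of Fen1 may depend on how reads shared with Gm10143, which covers 78.8% of its exonic length, were counted. This was not tested. The members with the largest log2 fold changes, Cdc6, Rrm2 and Uhrf1, thus stood at low, high and intermediate levels.

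Markers of other bone marrow cells were read in the same libraries. Neutrophil and granulocyte precursor markers were higher in PKM2ΔMAC for 10 of 10 genes, 5 of them without overlap (8.77% of all genes) and with an unadjusted p under 0.05 (5.24%), and summed to between 21.2 and 50.5 CPM in PKM2FL/FL and between 90.8 and 173 CPM in PKM2ΔMAC libraries. By edgeR 0 of the 10 were called, while DESeq2 called 4 (S100a8, adjusted p = 0.00062, Ngp, adjusted p = 0.00069, Ltf, adjusted p = 0.00268, and S100a9, adjusted p = 0.0170), with 0.91% of its genes called higher. In edgeR with a replicate block S100a8 was called (adjusted p = 0.0110). Without PKM2ΔMAC replicate 2, 9 of the 10 were higher without overlap (15.5% of all genes), and their median log2 fold change was 1.80 in place of 1.46. None of the 10 was at 0 in every library. Replicate 2 was the lowest PKM2ΔMAC library for their sum (124, 90.8 and 173 CPM in replicates 1 to 3), the opposite of its place for the replication genes. Mmp8 was the 1 marker of the 10 with replicate 2 as its highest library, at 26.3 CPM against 9.66 and 10.3 CPM in replicates 1 and 3. Stem and progenitor cell markers summed to between 11.0 and 12.7 CPM and between 11.5 and 17.0 CPM, where replicate 2 was again the lowest of its genotype, and 0 of 6 were without overlap. Without replicate 2, 3 of the 6 were higher without overlap (15.5% of all genes), and the median log2 fold change of the 6 was 0.43 in place of 0.28. Erythroid markers were between 1.50 and 1.91 CPM and between 1.63 and 3.09 CPM, with 2 markers higher without overlap (8.77% of all genes). Hba-a1 had a log2 fold change of 1.02 (unadjusted p = 0.0195 in edgeR, where 5.24% of all genes were higher under 0.05). Alas2, with between 2 and 14 counts, was below the filter and not tested. T and NK cell markers were between 0.433 and 0.843 CPM and between 0.418 and 0.726 CPM. B cell markers were between 39.5 and 50.7 CPM and between 42.6 and 55.4 CPM. Of these, 1 was higher without overlap (8.77% of all genes), Cd79b (log2 fold change 0.55, unadjusted p = 0.0369 in edgeR, where 5.24% of all genes were higher under 0.05). Dendritic cell markers were between 3.44 and 4.56 CPM and between 3.81 and 4.37 CPM, and mast cell and basophil markers between 1.99 and 3.95 CPM and between 0.928 and 5.14 CPM. Of the latter, 2 were lower without overlap (8.55% of all genes). Cpa3 had a log2 fold change of -1.45 (unadjusted p = 0.00427 in edgeR, where 4.6% of all genes were lower under 0.05). Fcer1a, at 2 counts in each control and 0 in PKM2ΔMAC libraries, was below the filter and not tested. By edgeR and by DESeq2, 0 markers of these 6 lists were called. The part of these cells in the levels of the replication genes was not tested.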

How the data were processed

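RNA-seq of primed BMDMs from 3 PKM2ΔMAC and 3 PKM2FL/FL mice was analysed, 1 library from each mouse. A table of raw counts and a table of TPM values, both by gene symbol, were deposited for the 6 libraries, and 0 columns were left unmatched. The submitters' processing notes name FastQC 0.12.1, Trim Galore 0.6.10, HISAT2 2.2.1, SAMtools 1.19.2, Subread 2.0.6 and the build mm10. The annotation and the strand setting are not given in the sources used here. Lengths implied by the TPM values matched exonic lengths of GENCODE M21 (GRCm38) within 1% for 50 of 50 members. Counts were compared with edgeR 4.0.16 (R 4.3.3, limma 3.58.1): filterByExpr, TMM, a robust quasi-likelihood fit on genotype (common dispersion 0.0128), and Benjamini-Hochberg adjustment over all tested genes, with genes called under 0.05. CPM was scaled by TMM factors (0.979 to 1.04). The SE is the size of the log2 fold change over the square root of F. Precision is set by the spread between 3 mice per genotype and, for members with few counts, also by counting error.

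Alternatives were DESeq2 1.42.0, RLE scaling, no filter, limma-trend on log2 TPM with a pseudocount of 1 or 0.1 (mean TPM of at least 1), a replicate block, and each library left out in turn. The functions were tested on simulated data. Every member may be named. Values in every library are given, per role, for the member with the highest mean TPM and those with the largest and smallest log2 fold change, and for members called in any fit that leaves out at most 1 library. Per list of other genes, the same 3 kinds of gene are named, and those called, apart from 1 gene that is not reported here. Members and lists were chosen with earlier results of these data known, so no p over a list is given. A planned description of protein sequences was not computed here.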

Additional observations from a re-analysis of the deposited data

How the results depend on the processing

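Over 12 alternatives, 39 of the 50 members kept their direction, 38 of them higher in PKM2ΔMAC. The number of members higher was between 40 and 48, and the number higher without overlap between 24 and 31. Over all tested genes, 8.77% were higher without overlap with all libraries and 15.5% without PKM2ΔMAC replicate 2. With 1 library left out fewer libraries must stand apart, so these counts cannot be compared directly with that of all 6 libraries. With DESeq2, 3 members and 280 of all genes were called, with no filter 1 and 120, and with limma-trend on TPM 41 of all genes (pseudocount 1) and 32 (pseudocount 0.1). Leaving out 1 library gave between 0 and 2 members called and between 22 and 299 of all genes, with 299 without PKM2ΔMAC replicate 2 and between 22 and 27 without any PKM2FL/FL library. The cause was not tested. On TPM the log2 fold change of Gins4 was 0.044 and 0.045 and that of Fen1 0.072 and 0.11 (pseudocount 1 and 0.1). When each library was left out, it lay between -0.24 and 0.13 for Fen1, -0.080 and 0.012 for Gins4, -0.17 and 0.0030 for Pola2, -0.011 and 0.047 for Cdt1, -0.055 and 0.26 for Gins1, -0.030 and 0.17 for Rfc3, -0.059 and 0.19 for Rpa2, -0.19 and 0.33 for E2f2, -0.032 and 0.11 for Slbp, -0.066 and 0.45 for Chek1, and -0.029 and 0.12 for Tipin. With a replicate block, 0 members and 82 genes were called, 47 members were higher, their median was 0.30, and Fen1 was at 0.026. Deviations of same-numbered libraries correlated at 0.069, 0.12 and 0.011 and PKM2ΔMAC replicate 3 correlated best with PKM2FL/FL replicate 1 (0.056), so the numbers were not taken to pair the mice. Counting error adds to the spread between mice for members with few counts, the lowest of which was 61 in a library.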
